A study of Mus musculus with 36 samples.

Results

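The population described here is the CD11c-negative microglia of the hippocampus of APP mice, 426 single cells of 2657 kept in the whole series. They are all cell barcodes of the 6 libraries (of 36) whose titles name an APP animal, the hippocampus and the CD11c-negative gate, with at least 200 detected genes; no barcode fell under that minimum. The cells came from 4 male APPswe/PSEN1dE9 (APP/PS1) transgenic mice aged 6 months, with 142 cells from animal 1, 69 from animal 2, 145 from animal 3 and 70 from animal 4. The groups set against it were CD11c-negative microglia of the cortex of the same 4 APP mice (454 cells) and CD11c-negative microglia of the hippocampus of 4 male WT mice aged 6 months (438 cells). CD11c-positive cells of the hippocampus of the APP mice (362 cells) were set beside it without a test. All cells had been released mechanically at 4 °C and sorted by FACS into plates as CD11b-high, CD45-intermediate cells without DAPI and with DRAQ5 staining, and single-cell libraries were made after Smart-seq2. APP/PS1 mice carry a mutant amyloid precursor protein and a mutant presenilin 1, both under a neuronally active prion promoter, and deposit amyloid in cortex and hippocampus; the transgenes were not measured here.

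Microglia are the resident macrophages of the brain. In the undisturbed brain they show a homeostatic programme, with the surface protein Tmem119, the ADP receptor P2ry12, the fractalkine receptor Cx3cr1, the survival receptor Csf1r, lysosomal proteases and the C1q subunits of complement. Around amyloid plaques a part of them takes on a disease-associated programme with Apoe, Cst7, Lpl and the integrin CD11c (gene Itgax), so the CD11c-negative gate sets the cells of a plaque-bearing hippocampus apart from that state by a surface protein.

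The 6 libraries held 69 to 76 cells and 1127618 to 2112175 counts each. A cell had a median of 17997 counts (5462.5 to 52844 from the 5th to the 95th percentile) in 860.5 genes (538 to 1318), and a median of 1.03% of its counts was mitochondrial. The libraries used 79 barcode sequences between them, and each of the 15 library pairs shared 62 to 72, so a barcode names a well and not a cell; no pair of libraries agreed within sampling noise (chi-square per degree of freedom 40.8 to 62.1). The genotype tag in the labels goes against the title in 17 of the 36 libraries. Among the 6 libraries here, both libraries of animal 3 (145 cells) carry the wild-type tag and the other 4 the transgenic one, and the titles were followed. Of the compared libraries, 2 of 6 of the WT hippocampus and 4 of 6 of the APP cortex carry a tag against their title. Each group also has set numbers of its own in the titles (9 and 10 here, 7 and 8 for WT hippocampus, 3 to 6 for APP cortex), so that set and group cannot be told apart.

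The microglial label was borne out by the markers. Tmem119, a transmembrane protein used to tell microglia from other brain macrophages (chromosome 5, 113793729 to 113800516, GRCm38), had a count in 400 of 426 cells (93.9%, exact 95% interval 91.2% to 96.0%). Its level was 2417, 2835, 2646 and 2924 CPM (counts scaled to the same total in each animal, after its cells were summed) in animals 1 to 4, 2705 ± 225 (SD, n = 4). P2ry12, through which microglial processes sense ADP (chromosome 3, 59216272 to 59262871), had a count in 410 cells (96.2%) and was at 2498, 2367, 2750 and 2914 CPM. The animals lay close together for both markers, and animal 4 was highest in both. Fth1, the heavy chain of the iron store ferritin (chromosome 19, 9980598 to 9985098), was found in fewer cells, 254 (59.6%, 54.8% to 64.3%), at 757, 1063, 1114 and 774 CPM. Animals 2 and 3 were the higher ones for Fth1, and the share of cells with a count ranged from 51.4% in animal 1 to 69.6% in animal 2.

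Itgax, which encodes the gated protein, had 58 counts in 7 cells (1.64%, exact interval 0.663% to 3.36%), at 0, 36.4, 2.52 and 0.887 CPM in animals 1 to 4. Animal 2 stood apart from the others, but 46 of the 58 counts sat in 1 cell, so its level rests on that cell. Because the gate was set on CD11c, this low level describes the sort. In the CD11c-positive cells of the hippocampus of these APP mice (362 cells) Itgax had counts in 47 cells, so the transcript was sparse on both sides of the gate. The titles of that group name animals 1-2, 2-3 and 4, and all its libraries carry the wild-type tag against their titles. Between the CD11c-negative and the CD11c-positive cells the share with a count was 35.4% and 99.7% for Apoe, 0.939% and 77.9% for Cst7, 1.88% and 61.3% for Lpl, and 93.9% and 61.3% for Tmem119. These shares are set side by side with no test, at a median of 17997 counts per CD11c-negative cell and 20168.5 per CD11c-positive cell.

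Most markers of other cells were rare, with some exceptions. The neutrophil and red blood cell markers measured had no count in any of the 426 cells, which allows a share of up to 0.704% of cells with a count (3 of 426). The 8 border macrophage markers measured held 20 counts in all. Snap25 (neurons), Gfap and Aqp4 (astrocytes), Cldn5 (endothelium) and Mog (oligodendrocytes) were at 0 counts in every cell. Other members of the same lists were seen: Bsg of the endothelial and mural list in 143 cells (33.6%, 482 ± 90.4 CPM), the glutamate transporter gene Slc1a3 of the astrocyte list in 115 cells (27.0%, 311 ± 94.4 CPM), Pecam1 in 51 cells and the neuronal list's Meg3 in 30. Cells with a count of any member made up 48.1% for the lymphocyte list, 41.5% for the endothelial and mural list, 28.4% for the astrocyte list and 9.86% each for the neuron, oligodendrocyte and dendritic cell lists. Only 3 cells (0.704%) held at least 3 markers of 1 other type, 1 each with neuronal, astrocytic and endothelial markers. Ighm, the heavy chain of IgM, was the widest of the lymphocyte list with 756 ± 221 CPM in 198 cells (46.5%), while Ms4a1, Cd8a, Trac and Nkg7 were at 0.

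Both C1qb and P2ry12 hold the letters AGGAAGT, the core of the motif of the myeloid factor PU.1, shortly before the gene's RefSeq start. Their sequences are shown because these genes carry the microglial identity of the cells. Of the 24 leading and marker genes described here, 18 have a RefSeq promoter in the table used (GRCm38.p6), and in 3 of them (P2ry12, C1qb and C1qc) AGGAAGT occurs on either strand within the 250 bases before the start. The same letters occur in 7.69% of all 32851 RefSeq promoters. The match begins at position −52 in P2ry12, −53 in C1qb and −195 in C1qc, counted from the RefSeq start. For P2ry12 that start lies upstream of the GENCODE span given above, so the match is farther from the GENCODE start. The motif was chosen after the expression values were known, and a match is a description of the letters only. The capitals mark the match, and both windows are written 5′ to 3′ along the gene, which lies on the minus strand: chr3:59262986-59263105 for P2ry12 and chr4:136886201-136886320 for C1qb.
P2ry12: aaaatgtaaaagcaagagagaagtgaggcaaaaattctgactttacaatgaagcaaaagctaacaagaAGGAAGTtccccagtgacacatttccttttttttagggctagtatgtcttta
C1qb: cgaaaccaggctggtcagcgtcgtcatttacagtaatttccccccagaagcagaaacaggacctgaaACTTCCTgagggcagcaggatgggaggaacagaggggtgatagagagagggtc

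Actb, Cst3 and Malat1 led the population. Actb, cytoplasmic actin, was at 9097, 10377, 8766 and 12283 CPM in animals 1 to 4 (mean 10131 ± 1594). Cst3, the secreted inhibitor of cysteine cathepsins, was at 8931, 9639, 8900 and 9868 CPM. The levels of these 2 genes overlapped, so their order in counts is not firm, while per kilobase of exon Cst3 was first of all genes with 7373 CPM per kb, against 3782 for Actb. Malat1, a nuclear non-coding RNA, followed at 6379, 7727, 5860 and 7764 CPM, below both genes in each animal. These 3 were also the only genes with a count in every cell.

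Behind them came genes of membrane organisation, lysosome and complement. The tetraspanin Cd81 was at 5189 ± 571 CPM and the aspartic protease Ctsd at 4884 ± 280 CPM (SD, n = 4). The lysosomal proteases Lgmn (3427 ± 526) and Ctss (3299 ± 58.6) and the complement subunits C1qc (4028 ± 549) and C1qb (3170 ± 344) were all among the 20 leading genes. Ctss was the most even of them over animals, at 3262, 3339, 3236 and 3358 CPM. Sat1, which acetylates polyamines for their breakdown, ranged more widely, from 2922 CPM in animal 1 to 4441 in animal 4, and so did the retinal reductase Dhrs3, from 2540 in animal 1 to 4155 in animal 4. The remaining leading genes between 2974 and 4370 CPM were the kinase gene Bmp2k, the cytoskeletal regulator Dpysl2, the antisense transcript Adap2os, the transcription factor Bhlhe41, the splicing genes Srsf2 and Arglu1, the selectin ligand Selplg, Itm2b, whose product binds amyloid precursor protein, and the platelet-activating factor receptor Ptafr. Together the 20 leading genes held 8.83% ± 0.853 of the counts. Per kilobase, the order after Cst3 was Adap2os (3994), Actb (3782), C1qb (2913), the ubiquitin-like gene model Gm8797 (2627), mt-Rnr2 (2443), Ctss (2429) and C1qa (2260). Adap2os lies opposite to Adap2 on chromosome 11, and because no source used here states whether strand was counted, reads of these 2 genes cannot be told apart.

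**Figure D1:**
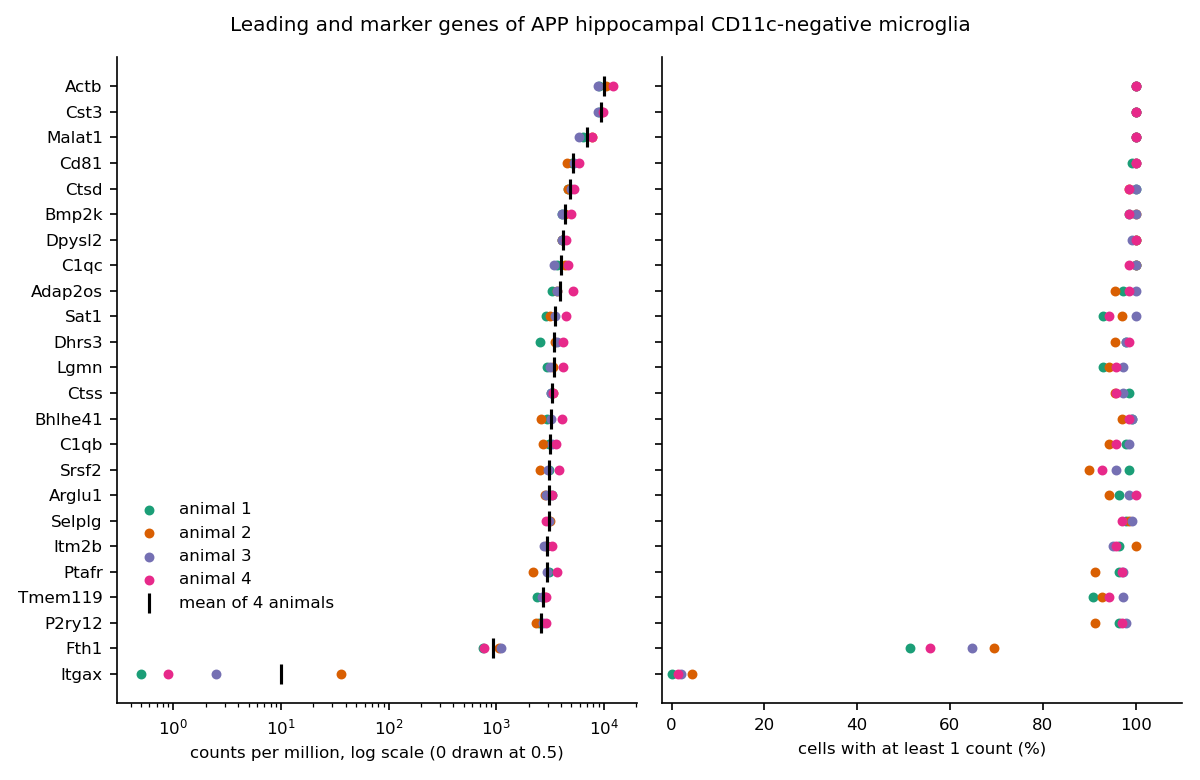
Level per animal in CPM on a log axis (left) and share of cells with at least 1 count (right) for the 20 leading genes and the marker genes; points are the 4 animals and the bar is their mean. The leading genes lie at 2210 CPM or more in all animals and are found in most cells, Fth1 lies lower and in 51.4% to 69.6% of cells, and Itgax is near 0 except in animal 2 (36.4 CPM). Of the 58 Itgax counts, 46 sat in 1 cell.

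A small core of genes was found in nearly every cell and a long tail in few. Of 16865 genes with any count, 42 had one in at least 90% of cells, 213 in at least 50% and 2197 in at least 10%, while 2968 genes were seen in a single cell. With every cell thinned to 5000 counts, which left out 17 shallower cells, the 3 numbers were 21, 126 and 1427. Entries of 1 count made up 32.4% of all entries above 0, and the entries of 20 or more held 89.1% of the counts.

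The homeostatic programme was present in most cells. All 40 genes of the homeostatic list had counts, 25 of them in at least 50% of cells, and a cell held a median of 24 of the 40. Their summed level was 57738 ± 2433 CPM, from 55098 to 60787 over the animals. Csf1r was found in 404 cells (94.8%) and Cx3cr1 in 395 (92.7%). The signalling adaptor Tyrobp was in 293 cells and its partner Trem2, the lipid receptor that the disease-associated state depends on, in 324 (76.1%, 1446 ± 199 CPM). Sall1, a transcription factor of microglial identity, had counts in 88 cells only (20.7%), at 146, 366, 173 and 369 CPM, with animals 2 and 4 above animals 1 and 3. Jun was the member found in the fewest cells, 26.

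Of the 30 genes of the disease-associated list, 9 were found in at least 50% of cells, and these were mostly lysosomal or general myeloid genes: Ctsd, Ctsb, Ctsz, Cd68, Gm2a, B2m, Cd9, Serpine2 and Fth1. The genes that define the state late in its course were rare. Cst7, an inhibitor of cathepsins, had counts in 4 cells, lipoprotein lipase Lpl in 8, the lectin Clec7a in 4, Axl in 2, and Igf1 and Spp1 in 1 cell each. Gpnmb had none in 426 cells. Apoe was in between, with counts in 151 cells (35.4%) at 484, 284, 381 and 71.0 CPM in animals 1 to 4. Animal 4 was lowest for Apoe, and most of the Apoe counts sat in few cells: the top 43 cells held 96.2% of them, and the highest cell had 583 counts.

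Other groups of genes differed in how widely they were found. Of 28 lysosomal genes 13 were in at least 50% of cells, with Ctsd (424 cells) and Ctss (414 cells) among the widest. Of 16 complement and Fc receptor genes 6 were, among them C1qa, C1qb, C1qc, Fcer1g (287 cells) and Fcgr3 (256 cells), while C3 itself had no count. None of the 25 immediate early genes reached 50% of cells. Fos had counts in 1 cell, Jun in 26, and Fosb, Egr3, Nr4a1, Hspa1a and Hspa1b in none, whereas Jund (200 cells), Rhob (143) and Btg2 (114) were the widest of that list. The interferon response list summed to 444 CPM, with 213 CPM in the lowest and 788 in the highest animal, and MHC class II to 548 ± 87.1 CPM.

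**Figure D2:**
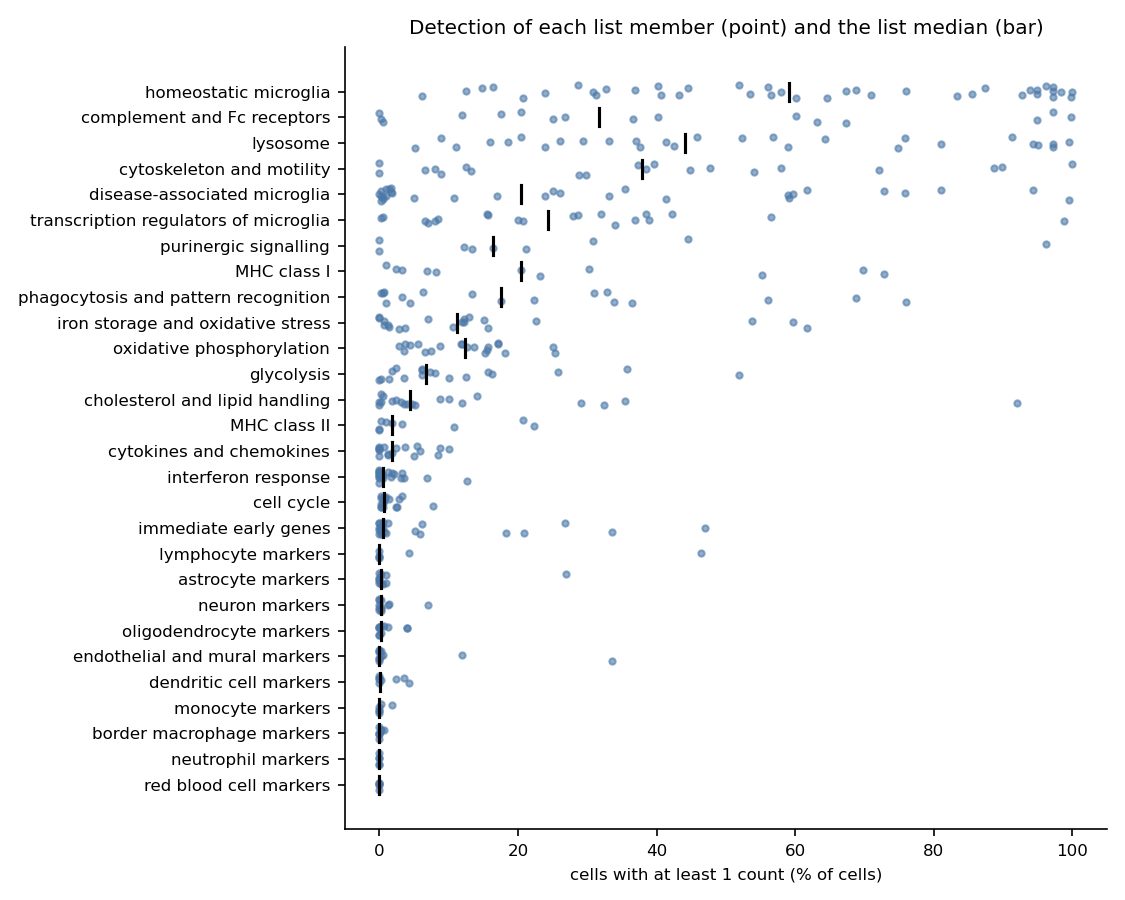
Share of the 426 cells with at least 1 count (horizontal axis, percent) for each member of each gene list (points, spread vertically for sight), with the list median as a bar. The homeostatic list has the highest median (60.1% of cells), the disease-associated list spreads from 0 to 99.5%, and the lists of other cell types have medians near 0.

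Among cells, the genes with the least spread were the 3 that led the population. Spread was measured as the coefficient of variation (CV, SD over mean) of counts thinned to 5000 per cell, within an animal. The log2 distance of the CV from a running median (the trend) was also taken, over 1427 genes found in at least 10% of cells. The genes of highest mean, from P2ry12 and Tmem119 up to Malat1, Actb and Cst3, were all set against the same median. Among them the distance only restates the CV. As CV falls with the mean, it cannot show that the leading genes were even for their level. Malat1 had a CV of 0.484, 1.09 below the trend on the log2 scale, Cst3 0.526 (0.97 below) and Actb 0.538 (0.94 below). Counting error alone would give 0.168, 0.143 and 0.144 at their mean counts. Next below the trend were Lrrc58 (CV 0.666), then Ftl1-ps1, Adap2os, Bmp2k, the endoplasmic reticulum chaperone Hyou1, Tmem87a and Ctsd (distances −0.84 to −0.67). P2ry12 (CV 0.809, distance −0.36) and Tmem119 (0.884, −0.23) lay below that shared median in all 4 animals. This does not make them more even than genes of like level. At like mean counts, the CV of Srsf2 (0.779) was under that of P2ry12, and that of Itm2b (0.793) under that of Tmem119. Dhrs3 (0.907) lay above both markers. Fth1 lay above the trend, with a CV of 1.80 and a distance of 0.14.

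The same difference showed in single cells. In the median cell, Tmem119 was at 2753 CPM of a cell's own counts and P2ry12 at 2640, with cell quartiles of 889 and 4332 CPM for Tmem119 and 1173 and 4298 for P2ry12. For Fth1 the median cell was at 52.2 CPM and the upper quartile at 1538. The 43 cells with most counts of a gene held 30.1% of those of Tmem119, 30.8% of P2ry12 and 61.7% of Fth1.

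The genes most above the trend were found in few cells at high counts. This follows from the choice, as a high CV at a given mean comes with counts held by few cells. All but Mgat4a were in 10.2% to 11.5% of cells at 5000 counts, just over the 10% asked for, so that limit shapes the list. Ski, a corepressor of TGF-beta signalling, had a CV of 4.78 (distance 0.64), with 66 cells above 0 and a highest cell of 254 counts among 2269. Its level was 271, 633, 124 and 68.3 CPM in animals 1 to 4, highest in animal 2. Tmed3, a cargo protein of the secretory path, had counts in 72 cells, with 98.5% of them in 43 cells. The splicing factor gene Sf3b2, the postsynaptic scaffold gene Dlgap4, the kinase gene Rock2, the deubiquitinase gene Uchl5, Acin1, Hps4 and the mitochondrial complex I gene Ndufb10 had distances of 0.44 to 0.51 and 64 to 78 cells above 0. Uchl5 lay just under the trend in animal 3 (−0.024). The SD over animals was larger than the distance for Uchl5 (0.514 and 0.458) and Hps4 (0.458 and 0.447). Mgat4a, a Golgi glycosyltransferase, was the widest of the 10 (163 cells, 720 ± 114 CPM, CV 2.72), and 43 cells held 80.5% of its counts.

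**Figure D3:**
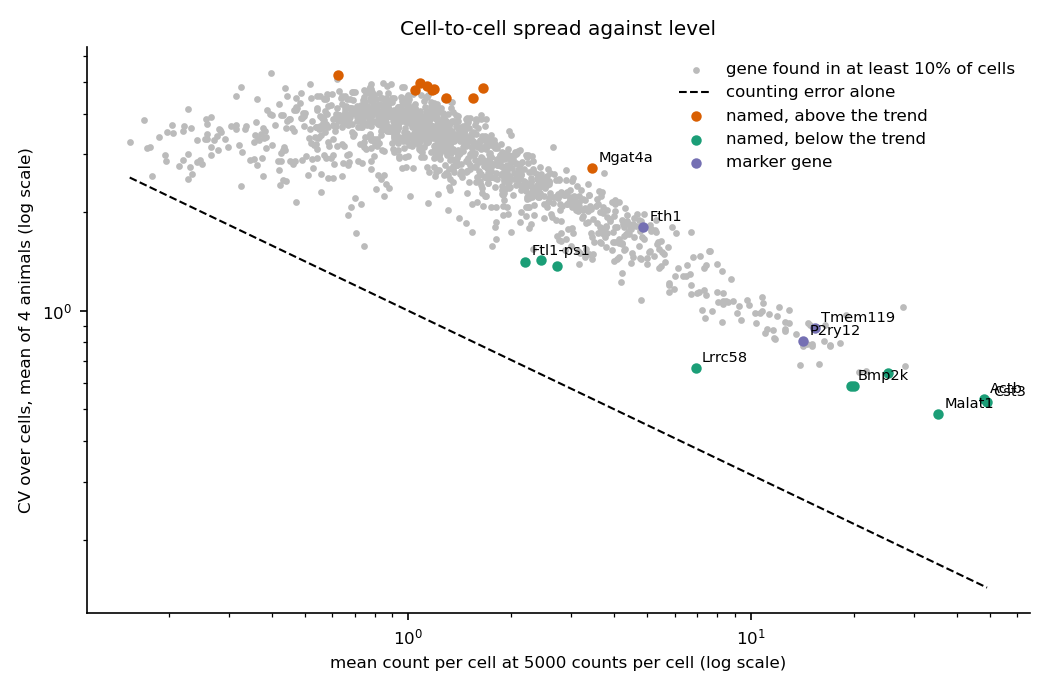
Coefficient of variation over cells (vertical, log axis) against the mean count per cell at 5000 counts per cell (horizontal, log axis) for the 1427 genes found in at least 10% of cells; coloured points are the named genes and the dashed line is counting error alone. Malat1, Cst3 and Actb lie lowest, with CVs of 0.484 to 0.538, and Fth1 (1.80) lies above Tmem119 (0.884) and P2ry12 (0.809).

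Co-expression was weak for most genes. Over the 126 genes found in at least 50% of cells at 5000 counts, Spearman's rho was taken over the cells of a library and averaged per animal. The 7875 pairs had a median rho of 0.0146, with 5% under −0.117 and 5% over 0.152. Only 20 pairs reached 0.3 and were positive in all 4 animals, and 9 lay at −0.3 or under. These correlations describe cells that share a library and a fixed depth, and no test was made of them.

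The highest pairs were copies of the same sequence. Ubb and the gene models Gm1821 and Gm8797, all ubiquitin sequences, had rho values of 0.885 to 0.919, Ftl1 and its copy Ftl1-ps1 0.866, mt-Co1 and Gm29216 0.804, and Tpm3 and Tpm3-rs7 0.665. Near-identical copies can split or share reads in counting, so these values do not separate 2 genes. The same holds for Adap2 and its antisense partner Adap2os (0.492).

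Among pairs without such copies, the 3 leading genes went together: Cst3 with Actb at 0.697 (0.602 to 0.761 over the animals), Actb with Malat1 at 0.638, and Cst3 with Malat1 at 0.614. Cst3 also went with Cd81 (0.442) and C1qc (0.366), and Bmp2k with the splicing gene Arglu1 (0.354). The lowest rho values all involved Cst3, with Lrrc58 at −0.375, Tmem87a at −0.369, the gene model Gm12940 at −0.345, the non-muscle myosin gene Myh9 at −0.336 and the translation gene Paip1 at −0.323. The number of genes found in a cell at equal depth moved with these pairs: its rho was −0.71 with Malat1, −0.71 with Cst3 and −0.68 with Actb, and 0.31 with Lrrc58. Given genes per cell, the partial rho was 0.397 for Cst3 with Actb, 0.310 for Actb with Malat1, 0.238 for Cst3 with Malat1 and −0.225 for Cst3 with Lrrc58, while Bmp2k with Arglu1 stayed at 0.367 and Adap2 with Adap2os at 0.497. With that adjustment, which was added after seeing the data, 12 pairs reached 0.3.

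The microglial markers did not form a tight block. The highest partner of P2ry12 was Cst3 (0.191), that of Tmem119 was the ubiquitin copy Gm1821 (0.232), and that of Cx3cr1 was Csf1r (0.137). Over the 171 pairs of the 19 homeostatic genes that were wide enough, the median rho was 0.0289, close to the 0.0146 of all pairs. The 3 pairs of C1qa, C1qb and C1qc, whose products assemble into 1 complement protein, had a median of 0.221, from 0.0737 to 0.342 over the animals.

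**Figure D4:**
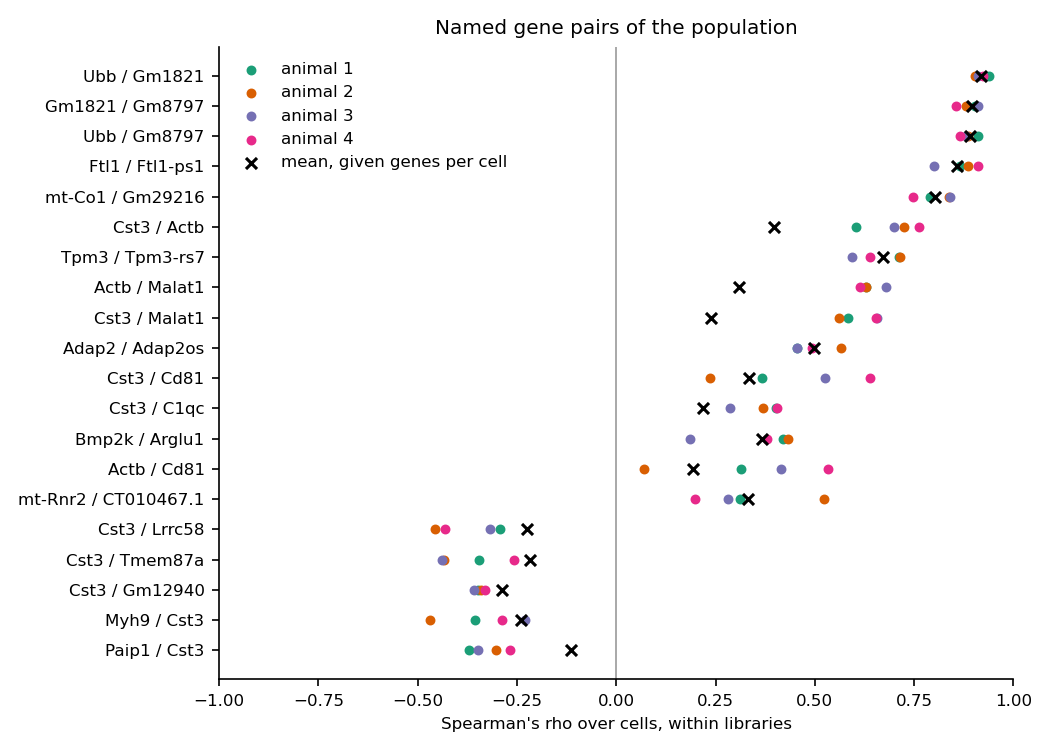
Spearman's rho over cells (horizontal) for the 15 highest and 5 lowest pairs with the same sign in all animals; points are the 4 animals and crosses the mean given genes per cell. The crosses of the Cst3, Actb and Malat1 pairs (0.238 to 0.397) lie left of the points, while those of the sequence copies stay with them.

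The comparison with CD11c-negative microglia of WT hippocampus asks what marks these cells in the transgenic mice apart from the plaque-associated state. Counts were summed per animal and tested with edgeR's quasi-likelihood test, Benjamini-Hochberg adjusted over 14892 genes; CPM in the comparisons are scaled by edgeR's TMM factors and differ slightly from those above. At an adjusted p under 0.05, 49 genes were higher (0.329% of those tested) and 177 lower (1.19%) in APP cells. The microglial markers Tmem119 and P2ry12 were not among them: Tmem119 averaged 2438 ± 215 CPM in APP cells and 2148 ± 420 CPM in WT cells (log2 fold change 0.18, edgeR adjusted p = 0.668), and P2ry12 2375 ± 271 and 2073 ± 357 CPM (0.20, adjusted p = 0.668). Their share of cells with a count was higher in APP than in WT cells, at 93.9% and 72.4% for Tmem119 and 96.2% and 78.3% for P2ry12. At 5000 counts per cell the shares were 88.5% and 61.6% for Tmem119 and 89.7% and 66.3% for P2ry12. No test was made of these shares, and detected genes per cell were higher in APP cells as well. Of the 40 homeostatic genes 1 passed, the semaphorin gene Sema4b, which was lower, and their median log2 fold change was 0.19 beside 0.01 for all genes tested. Of the 29 disease-associated genes tested, Fth1 was higher and Gm2a lower.

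Fth1 was higher in APP cells, at 682, 930, 1011 and 714 CPM in APP animals 1 to 4, against 552, 405, 442 and 345 CPM in WT animals 1 to 4. Every APP animal lay above every WT animal (log2 fold change 0.94 ± 0.18 SE, edgeR adjusted p = 0.00459). The edgeR adjusted p was 0.055 without APP animal 3, whose libraries carry the wild-type tag, and 0.130 when genes per cell entered the fit. The log2 fold change was 0.78 and 0.81 in these 2 fits. The other iron and oxidative stress gene that passed, superoxide dismutase Sod1, was lower (862 ± 296 and 1542 ± 180 CPM, log2 fold change −0.84). Of the complement and Fc receptor genes, C5ar2, a C5a receptor, was lower (864 ± 182 and 2032 ± 417 CPM).

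The genes named by size of evidence among the higher ones were of 2 kinds. CT010467.1, an annotated ribosomal RNA (chromosome 17, 39846353 to 39848827), was at 5247, 6604, 2969 and 3532 CPM in APP animals, against 1748, 1428, 1434 and 1774 CPM in WT animals (log2 fold change 1.52 ± 0.22, edgeR adjusted p = 0.000201). The other kind was almost unseen in WT cells. The ETS factor gene Elf2 was at 116, 72.2, 113 and 128 CPM in APP animals, against 0.282 CPM in WT animal 1 and 0 in WT animals 2 to 4, 1 count in all. Pigq, a gene of GPI anchor synthesis, was at 22.4, 7.95, 44.9 and 179 CPM in APP animals 1 to 4, 492 counts in all, and had 0 counts in WT cells. That is at least 179-fold higher against a floor of 3 counts over the WT group, and at least 113-fold without APP animal 4, the highest. The glutaminyl-tRNA synthetase gene Qars, the sugar transporter gene Slc2a8, the Mediator gene Med22 and the Polycomb gene Mtf2 had 505 to 805 counts in APP cells and 2 to 7 in WT cells. Of the 49 higher genes, 28 had 3 or fewer counts in all WT cells. In both set numbers of the WT hippocampus these 6 genes were between 0 and 1.21 CPM, and in each of the other 10 sets of the series, WT cortex included, they were at 1.40 CPM or more. Set and group cannot be told apart here.

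The lower genes were mostly genes of high level. Dpysl2 was at 3643, 3558, 3747 and 4112 CPM in APP animals, against 7366, 7111, 7981 and 6837 CPM in WT animals (log2 fold change −0.96 ± 0.11, edgeR adjusted p = 2.19e-05), with a wide gap between the groups. The histone methyltransferase gene Kmt2d (−1.06), the receptor gene Notch2 (−1.20), Tacc1 (−1.17), the microtubule-binding gene Clasp2 (−1.19), Wtap of the RNA methylation complex (−1.35), the mitochondrial protease gene Yme1l1 (−1.37) and the phosphoinositide phosphatase gene Inpp4a (−1.48) were lower to a like extent. For these genes and Dpysl2, no overlap between the animals was a condition for being named. Leading genes of the population were among them, with Bmp2k, Arglu1, Sat1, Dhrs3, Srsf2, Adap2os, Bhlhe41 and Ptafr at −0.87 to −1.09, whereas Itm2b was a leading gene that was higher (2688 ± 232 and 1852 ± 371 CPM, log2 fold change 0.54). Of the cholesterol and lipid genes, the sterol transporter Abcg1 (2190 ± 123 and 4601 ± 380 CPM) and Insig1, which holds back sterol synthesis (109 ± 30.4 and 509 ± 143 CPM), were the 2 of 19 tested that passed, and both were lower. Both had at least 500 CPM in WT cells, a range in which 150 of 392 genes were lower. Of the 20 cytoskeleton and motility genes tested, 3 were lower, Rhoa, Myh9 and Marcks, beside 150 of the 392 genes with at least 500 CPM.

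The whole upper range moved with these calls: over the 392 genes with at least 500 CPM the median log2 fold change was −0.75 and 305 were negative, and 150 of the 177 lower genes were among them. Detected genes per cell at equal depth moved as well, with 612, 583, 650 and 643 in APP animals, against 466, 424, 466 and 389 in WT animals. Genes per cell entered the fit as a covariate, added after seeing the data, which left 11 genes higher and 62 lower. As this measure did not overlap between the 2 groups, that fit cannot settle its part in the lower calls. With the covariate the log2 fold change was −0.75 for Dpysl2 and −0.99 for Kmt2d, against −0.96 and −1.06 without it. Grouped by the genotype tag instead of the title, no gene passed in edgeR in either direction (1877 at an unadjusted p under 0.05), and without WT animal 1 the number of higher genes was 76.

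The comparison with APP cortex asks what is regional in the same mice. In hippocampal cells 23 genes were higher (0.154% of 14892 tested) and 318 lower (2.14%) than in cortical cells. With the animal as a block, the fit that the shared animals call for, edgeR called 0 genes higher and 0 lower of 9099 tested (839 at an unadjusted p under 0.05), so that the calls below rest on the fit without the block. Of the 40 homeostatic genes 3 were higher, 1 was lower (Sema4b) and 35 of 40 log2 fold changes were positive, at a median of 0.39 beside −0.10 for all genes tested. Tmem119 was at 2175, 2479, 2401 and 2696 CPM in hippocampus, against 1747, 1880, 1654 and 1370 CPM in cortex (log2 fold change 0.55 ± 0.14, edgeR adjusted p = 0.0402). Cx3cr1 was at 1990, 2128, 2088 and 2361 CPM in hippocampus, against 1339, 1348, 1389 and 1065 CPM in cortex (0.74 ± 0.17). The groups did not overlap in either gene, which for Cx3cr1 was a condition for being named. Tmem119 passed in only 4 of 16 alternative fits and Cx3cr1 in 7 of 16.

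Ctsd was at 4196, 4070, 4520 and 4828 CPM in hippocampus, against 2977, 3164, 3061 and 1923 CPM in cortex (log2 fold change 0.66 ± 0.14, edgeR adjusted p = 0.0085), and Grn, the lysosomal glycoprotein progranulin, was higher too (864 ± 133 and 433 ± 180 CPM). CT010467.1 (log2 fold change 1.19), the low-affinity IgG receptor Fcgr3 (707 ± 143 and 352 ± 45.9 CPM), the ribosomal protein gene Rps9 (1.25), the lipid hydrolase gene Abhd12 (1.11), the nucleoside transporter gene Slc29a3 (1.87) and the Rab GTPase-activating gene Tbc1d16 (4.70) completed the named higher genes. Leaving out 1 animal left 2 to 19 genes higher and 174 to 307 lower, and Ctsd did not pass without APP hippocampus animal 1, 3 or 4. CT010467.1 passed in all 8 of these fits and Ctsd in 5. Slc29a3 and Tbc1d16 passed in 2 each, and Fcgr3, Rps9 and Abhd12 in 1 each. Over all 16 alternative fits, CT010467.1 passed in 14 and Ctsd in 10. Fcgr3, Rps9, Abhd12, Slc29a3 and Tbc1d16 passed in 4 to 7 of the 16.

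On the lower side stood genes that the hippocampal cells barely held. Ank3, an axonal ankyrin, was at 0.266, 0, 0 and 0 CPM in hippocampus, against 90.9, 40.4, 50.5 and 59.1 CPM in cortex. Of the 12 neuron markers 5 were lower (Snap25, Syt1, Rbfox3, Stmn2 and Slc17a7), and of the 11 astrocyte markers 2 (Gja1 and Clu). Snap25 and Clu had 0 counts in hippocampus, and 1021 and 802 counts in cortex. Cells with at least 3 markers of 1 other type made up 0.704% of the hippocampal and 8.15% of the cortical cells. Without them 4 genes were higher and 150 lower, and Ank3 did not pass (edgeR adjusted p = 0.256). It averaged 58.0 to 123 CPM in the 3 cortical groups of the series, WT cortex included, and 0.189 CPM or less in the 3 hippocampal groups.

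A second kind of lower gene was expressed on both sides. The heparan sulphate proteoglycan gene Sdc4 was at 109, 88.8, 138 and 164 CPM in hippocampus, against 506, 597, 594 and 738 CPM in cortex (log2 fold change −2.29 ± 0.27, edgeR adjusted p = 0.000183). The RNA demethylase gene Alkbh5 (−1.12), Insig1 (−1.99), Dpysl2 (−0.74), Kmt2d (−0.76) and Yme1l1 (−1.08) were lower as well. Fth1 averaged 834 ± 161 CPM in hippocampus and 749 ± 102 CPM in cortex (0.15, adjusted p = 0.823), and P2ry12 2375 ± 271 and 1862 ± 287 CPM (0.35, adjusted p = 0.223); neither passed.

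**Figure D5:**
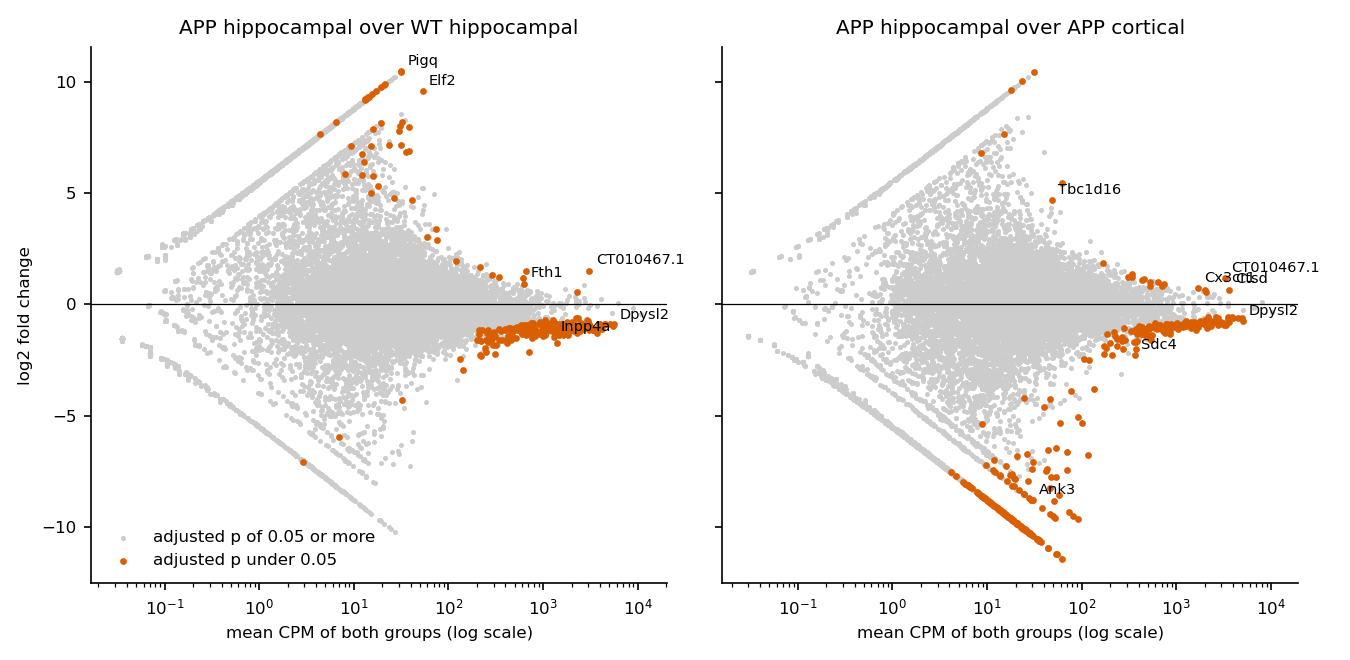
Log2 fold change (vertical) against mean CPM of both groups (horizontal, log axis) for the 14892 genes tested, for APP hippocampal over WT hippocampal cells (left) and over APP cortical cells (right); orange points have an adjusted p under 0.05. On the left the lower calls gather at high levels (150 of 177 at 500 CPM or more), and on the right 156 of the 318 lower genes have 3 or fewer counts in APP hippocampal cells.

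Beyond single genes, measures of the whole population were compared over animals by exact 2-sided permutation tests, for which 4 against 4 animals cannot give a p under 0.0286. Detected genes per cell at 5000 counts averaged 622 ± 30.7 in APP hippocampus and 436 ± 37.4 in WT hippocampus (SD, n = 4 each, exact p = 0.0286). The mitochondrial share of counts was 1.18% ± 0.104 in APP and 0.665% ± 0.0683 in WT hippocampus (exact p = 0.0286), and the share of ribosomal protein genes 1.55% ± 0.133 and 1.05% ± 0.184 (exact p = 0.0286). In all 3 measures each APP animal lay above each WT animal, but adjusted over the 8 tests of this kind the p was 0.0571, which misses 0.05. Against APP cortex the ribosomal protein share was 1.55% ± 0.133 in hippocampus and 1.08% ± 0.0441 in cortex with no overlap (exact p = 0.0286, adjusted 0.0571), and genes per cell were 622 ± 30.7 and 548 ± 88.9 (exact p = 0.229). As these are the same 4 animals, signs were also flipped within animals, which cannot give an exact p under 0.125; that p was 0.125 for both measures, so neither can pass in the paired test. The mitochondrial share was 1.18% ± 0.104 and 1.20% ± 0.296 (exact p = 1). The median CV over cells averaged 1.12 ± 0.112 in APP hippocampus, 1.16 ± 0.0548 in WT hippocampus (exact p = 0.657) and 1.10 ± 0.123 in APP cortex (exact p = 0.686).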

How the data were processed

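Per the labels' protocols, microglia were sorted by FACS into 384-well plates, libraries followed Smart-seq2 and sequencing used a NextSeq 500. The deposited values are raw counts for each gene in each barcode. The submitters' processing notes name UMI-tools 0.5.3, HISAT2 2.1.0, featureCounts 1.6.0 and GRCm38 (mm10); merging of molecular identifiers and strand use in counting are not given in the sources used here. Entries of 20 or more held 89.1% of counts, and if copies of 1 molecule were counted, intervals and floors cover counting error only.

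Barcodes with at least 200 genes were kept (Python 3.11.15); no doublet caller was run, and cells with at least 3 markers of another type were only left out as an alternative. Gene names, positions and exon lengths come from GENCODE vM21, promoters from RefSeq. The members and gene lists were chosen with earlier results of these data known. Groups follow the titles, and the libraries of an animal were summed, so n is animals in the groups compared. Named genes were the markers, the 20 leading genes (no mitochondrial genes, ribosomal protein genes or gene models), 10 genes above and 10 below the CV trend, 15 highest and 5 lowest pairs, and per comparison the 8 genes on each side with the smallest p, no overlap between animals and 50 CPM or more in the higher group, plus list members.

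Sums of all 6 groups (23 sums) entered 1 edgeR 4.0.16 fit (R 4.3.3; TMM, filterByExpr, Benjamini-Hochberg at 0.05), first tested on simulated data. The CD11c-positive hippocampal sums among them follow titles that name animals 1-2, 2-3 and 4. Sums of 1 animal from several groups entered as separate samples, so the fit treats them as independent. Alternatives were DESeq2 1.42.0 and other normalization, filters, depths and groupings, and each animal left out. In the cortex comparison, samples with the same number come from the same animal per the titles; their deviations correlated at −0.0612 to 0.0503 over 3480 genes. The edgeR p-values measure the spread between the sums within all 6 groups, and the exact p-values that between the animals compared. A few genes that the naming rule or the lists would give are not reported here.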

Additional observations from a re-analysis of the deposited data

Results flagged for a closer look

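Of 36 values over 4 animals examined for a single animal far from the rest, 2 passed the 95% limit of Dixon's test, where chance gives about 1 in 20. The first is Itgax, which encodes CD11c: animal 2 was at 36.4 CPM, beside a median of 1.70 CPM over the 4 APP hippocampal animals, a gap of 0.931 of the range. Of the 58 Itgax counts, 46 sat in 1 cell, so the level of animal 2 rests on that cell. The second is the mean over cells of the mitochondrial share of counts in APP hippocampal cells, at 1.33% in animal 2 beside a median of 1.13%, a gap of 0.883 of the range. By the median cell, animal 2 was the lowest, at 0.948%, against 1.06%, 1.03% and 1.06% in animals 1, 3 and 4. The cause was not tested in either.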

How the results depend on the processing

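Gene detection depended on depth: 42 genes were in at least 90% of cells, and 10, 21 or 10 when 5 counts, 5000 or 2000 counts per cell were asked for; for 50% of cells the numbers were 213 and 83, 126 or 90. The 20 pairs at a rho of 0.3 were 13 with Pearson's r and 12 with partial rho. Against WT hippocampus, where 49 genes were higher and 177 lower, the numbers were 11 and 62 when genes per cell entered the fit, 8 and 91 with 2 groups only, 10 and 96 with matching genotype tags, 0 and 0 grouped by tag and 646 and 376 with DESeq2; 30 were higher without cells of other types. A replicate block gave 3 and 66, but per the titles the same-numbered animals are APP and WT mice, which share only a number. Their deviations correlated at −0.0069 to 0.0164, and 1 of 4 correlated best with its own number. That measure cannot tell paired samples from unpaired ones. Samples of the same animal in the cortex comparison gave −0.0612 to 0.0503. Leaving out 1 animal gave 33 to 76 higher and 131 to 210 lower genes. Against APP cortex, where 23 were higher and 318 lower, the numbers were 0 and 0 with the replicate block, 4 and 150 without cells of other types, 0 and 75 with matching tags, 291 and 848 with DESeq2, and 2 to 19 and 174 to 307 with 1 animal left out. Another normalization (RLE) moved the median log2 fold change of all genes against WT to 0.14. P2ry12 against WT turned to −0.00963 when genes per cell entered the fit, Qars to −0.70 grouped by tag, and Fth1 against cortex ranged from −0.0643 to 0.161 with 1 animal left out. Without cells of other types, 5 differences of the whole population passed (adjusted exact p = 0.0457): genes per cell 185 against WT and 119 against cortex, ribosomal protein share 0.495 and 0.511 percentage points, mitochondrial share 0.513 against WT. In the main analysis the differences from WT were alike, at 186 genes per cell and 0.499 and 0.511 percentage points. An exact p cannot fall under 0.0286 here, so the adjusted p fell only because more of the tests reached that floor. The permutation test does not pair the animals shared with cortex, for which sign flips within animals cannot give a p under 0.125. The mitochondrial difference turned to 0.124 against cortex. The difference in median CV against WT turned to 0.0622 with at least 500 genes per cell. With 1 animal left out, the difference in median CV ranged from −0.0811 to 0.000877 against WT and from −0.0197 to 0.0652 against cortex, and that in mitochondrial share against cortex from −0.114 to 0.0680. Of the other results, 163 of 168 levels, 136 of 140 distances from the CV trend and 160 of 180 rho values moved less than their spread over animals. These numbers include the checks that left out 1 of the 4 animals. Such a check cannot move a mean by as much as the SD over the animals, so its outcome was fixed. Depth limits genes found in few cells, and set number and group cannot be told apart in any of these.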
